A study of Mus musculus with 16 samples.

Results

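Heat shock chaperones are the subject here: the cytosolic HSP70 genes Hspa1a, Hspa1b and Hspa8, their partners Dnajb1, Hsph1 and Bag3, the HSP90 gene Hsp90aa1, the small heat shock protein gene Hspb1, and the mitochondrial chaperonin genes Hspd1 and Hspe1. These 10 genes were taken by symbol, not by any measured value, from a table of 27179 gene identifiers. All 10 were found and all 10 passed the filter on low counts that left 15516 genes to be tested. The RNA came from 4 control and 4 Sftpc mutant mouse lungs, and from their alveolar type 2 (AT2) cells, epithelial cells of the alveolus that make surfactant. Each lung gave a CD44- and a CD44+ fraction, hence 16 libraries. The sort kept living cells that lacked CD45, CD31 and CD104 and carried Epcam and high CD200. The table names its columns R26 or OG with an animal number and the CD44 sort, and these names serve here for the 4 groups of 4 libraries: the CD44- and CD44+ sorts of R26, and the same sorts of OG. The labels record genotypes SP-C WT and SP-C Mutant, but no label ties a column prefix to either genotype. The treatment entry OG TMX stands on all 16 samples, controls included. That R26 columns are the controls and OG columns the mutants is therefore an inference, whereas the comparisons of CD44+ with CD44- cells within a prefix do not depend on it. The mutation, the strain, the age of the animals and the dates of harvest and sorting are not given in the sources used here.

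Heat shock chaperones bind unfolded or partly folded proteins, hold them in solution and help them fold. J proteins such as Dnajb1 deliver clients to HSP70 and stimulate its ATPase, exchange factors such as Hsph1 and Bag3 release the nucleotide and the client, and HSP90 acts later in the folding of signalling proteins. Most of these genes are switched on together by heat shock factor 1 (HSF1), which binds inverted repeats of the short unit nGAAn in promoters, while Hspa8 is the constitutive, housekeeping HSP70.

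Promoter sequences show how alike the members are at the DNA level. RefSeq start sites on GRCm38.p6 gave windows of 300 bases, 250 before and 50 after the start, for 8 of the 10 members. The windows were searched on both strands for a pair of facing units, GAANNTTC or TTCNNGAA, and for 3 units in a row, GAANNTTCNNGAA or TTCNNGAANNTTC, the longer motif containing the shorter. A pair of units was found in 7 of the 8 members with a window and in 15.1% of all 32851 windows. The run of 3 units was found in Hspd1, Hspe1 and Hsph1 and in 0.603% of all windows. Members are counted by gene, with a match in any window of the gene, while the shares are of windows, so they are not strictly alike. Hspd1 also had a window without a match, and Hspd1 and Hspe1 match through a stretch that they share. The only pair in Bag3 and the run in Hsph1 lie after the start. No window of Dnajb1 held either motif, which says only that these letters are absent there. Such a match is a description of the sequence and not evidence of binding. In the sequences shown next, capitals mark the motif.

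The mitochondrial chaperonin genes Hspd1 and Hspe1 lie head to head and share the same stretch, chr1:55088053-55088082, here read 5′ to 3′ on the strand of each gene. Hspb1 held 2 separate pairs of units at chr5:135887791-135887820 and chr5:135887811-135887840 on the plus strand, and a Hsph1 pair lay at chr5:149636351-149636380 on the minus strand. They are shown because these 4 genes rose most from R26 CD44- to OG CD44- cells among the members.
Hspe1: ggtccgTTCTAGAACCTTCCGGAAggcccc
Hspd1: ggggccTTCCGGAAGGTTCTAGAAcggacc
Hspb1, upstream pair: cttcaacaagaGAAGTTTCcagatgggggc
Hspb1, downstream pair: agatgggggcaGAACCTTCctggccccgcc
Hsph1: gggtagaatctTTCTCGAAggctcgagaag

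The 250 bases before the start are shown for the near-identical copies Hspa1a (chr17:34972157-34972406, minus strand) and Hspa1b (chr17:34959239-34959488, minus strand). They are shown because the share of Hspa1a among the counts of both copies did not overlap between the groups compared. After adjustment no test of that share passed, and how shared reads were divided is not given in the sources used here. Counted from 1 at the 5′ end of the window, Hspa1b differs from Hspa1a by C44T, T47C and T249G before the start and by C276T after it, so 4 of 300 positions differ. Both hold the same pair of units.
Hspa1a: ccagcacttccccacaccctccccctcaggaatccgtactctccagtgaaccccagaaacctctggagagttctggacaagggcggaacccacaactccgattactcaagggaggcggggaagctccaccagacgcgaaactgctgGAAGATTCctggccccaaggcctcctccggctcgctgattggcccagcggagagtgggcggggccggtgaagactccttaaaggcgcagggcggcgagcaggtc
Hspa1b: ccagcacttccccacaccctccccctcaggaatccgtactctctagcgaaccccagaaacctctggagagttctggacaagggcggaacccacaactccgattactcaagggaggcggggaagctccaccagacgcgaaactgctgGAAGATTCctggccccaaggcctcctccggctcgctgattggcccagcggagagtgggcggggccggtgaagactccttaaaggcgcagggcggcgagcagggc

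In GRCm38.p6, Hspa1b lies at chr17:34956429-34959238 and Hspa1a at chr17:34969359-34972156. Hspd1 (chr1:55077833-55088243) overlaps the start of its neighbour Hspe1 (chr1:55088148-55091317), and the strand setting used in counting is not given in the sources used here, so reads from that overlap could not be assigned with certainty. Hspb1 lies at chr5:135887919-135889563, Hsph1 at chr5:149616843-149636498 and Bag3 at chr7:128523583-128546981. Dnajb1 lies at chr8:83608175-83612653, Hspa8 at chr9:40801276-40805202 and Hsp90aa1 at chr12:110691036-110696395.

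Library totals ran from 9022471 to 21363816 counts. Levels are CPM, counts relative to library size, scaled by the trimmed mean of M values (TMM), and a difference is given as the log2 fold change ± SE of the quasi-likelihood test in edgeR, called at a Benjamini-Hochberg adjusted p under 0.05 over all 15516 genes. Replicates are animals by their column numbers, but nothing in the labels describes their housing or handling, so the p-values measure only the spread between these samples. The labelled cell type was checked first: 12 AT2 markers summed to 163070 to 192727 CPM in R26 CD44-, 108888 to 156507 in R26 CD44+, 47445 to 51059 in OG CD44- and 21999 to 26305 in OG CD44+ cells. The AT2 list includes Sftpc, the mutated gene, and Cd200, on which the cells were sorted, and abundant genes weigh most in the sum. The median fold change of these markers between prefixes was -1.02 in CD44- and -1.24 in CD44+ cells. In the marker sums 3 libraries stood apart from their groups. R26 animal 2 CD44+ had the 156507 CPM of AT2 markers, against 111625 at most in the other R26 CD44+ libraries. OG animal 3 CD44+ had 2864 CPM of fibroblast and mural markers, against 1712 at most in the other OG CD44+ libraries. R26 animal 1 CD44+ had 58.8 CPM of basal cell markers, against 2.26 at most in the other R26 CD44+ libraries, and 1534 CPM of fibroblast and mural markers, against 1010.4 at most. Counts of chaperones are therefore also given without both libraries of each of these animals.

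In OG cells 7 of the 10 chaperones were lower in the CD44+ than in the CD44- fraction. The mitochondrial pair Hspd1 and Hspe1, the small heat shock protein Hspb1, the exchange factors Hsph1 and Bag3, the constitutive Hspa8 and the HSP90 gene Hsp90aa1 all fell, by 0.35 to 1.01 on the log2 scale. Hspa1a was higher in 4 of 4 animals without passing the test, and neither Hspa1b nor Dnajb1 passed it. The test did not pair the sorts of a lung and took a single spread per gene from all groups, R26 included. The coefficient of variation of Hspa1a was 31.0% in R26 CD44- and 33.2% in R26 CD44+, against 1.21% and 3.18% in OG. With the animal as a block Hspa1a was called higher (0.50, adjusted p = 1.21e-13 by edgeR) and 7 members lower. Of all genes, 24.4% were then called higher and 30.8% lower. By edgeR, 7 of 10 members were called lower and 0 higher, where 28.0% of all genes tested were called lower, 22.3% higher and 50.4% in either direction. The 2 sorts did not overlap for 7 members that were lower and for Hspa1a, which was higher, where 28.4% of all genes were lower and 22.6% higher without overlap. The median of the 10 fold changes was -0.62, beside -0.06 over all genes tested. The count was 7 lower without OG animal 3 and 7 lower without R26 animal 2, where Hspa1a was also called higher. It was also 7 lower without R26 animal 1.

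In R26 cells Hsph1, Hspd1 and Bag3, all called lower with CD44 in OG, were called higher. Hsph1, Dnajb1, Hspd1 and Bag3 were higher in CD44+ than in CD44- cells, 4 of 10 called higher and 0 lower, where 37.1% of all genes were called in either direction, 21.6% higher and 15.4% lower. The count of 4 is near that background, and the split of calls over all genes moved with the scaling: 3357 were called higher and 2393 lower, 3174 and 3435 with DESeq2 size factors, and 2979 and 4824 with TMM scaled to OG animal 7 CD44-. The members' count fell to 2 with that reference and to 1 with only R26 libraries in the fit. It was 2 without R26 CD44- animal 8, 2 or 1, without R26 CD44+ animal 8 or 1, or without both libraries of R26 animal 1, 3 without OG animal 3 and 4 without R26 animal 2. Leaving out any R26 library also moved the scaling. The share of OG calls that were higher with CD44 went from 44.3% to between 51.8% and 52.6%. It was 53.1% with TMM scaled to OG animal 7 CD44- and every library kept. Calls lost here and below without an R26 library can therefore not be credited to that animal alone. With the animal as a block 7 members were called, all higher, where 42.5% of all genes were called, 23.4% of all genes tested as higher and 19.1% as lower.

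Between prefixes, OG CD44- cells had more of 8 members and less of Hspa1a and Hspa1b than R26 CD44- cells. All 10 were called, 8 higher and 2 lower, where 39.4% of all genes were called higher, 29.6% lower and 69.0% in either direction. None of the 10 overlapped between the prefixes, where 38.6% of all genes were higher and 29.0% lower without overlap. In the CD44+ fraction 4 members, Hspb1, Hspa8, Hspd1 and Hspe1, were higher in OG cells and 3, Hspa1a, Hspa1b and Dnajb1, were lower. The CD44- count was 9 without OG animal 3 (8 higher), 9 without R26 animal 2 (7 higher) and 10 without R26 animal 1 (8 higher). The CD44+ count was 7 without each of these animals, 4 higher without OG animal 3 or R26 animal 2 and 5 higher without R26 animal 1. Those 7 of 10 in CD44+ cells are near the background of 69.1% called in either direction, 34.5% higher and 34.6% lower. The prefixes did not overlap for 4 higher and 2 lower members, beside 29.3% and 28.3% of all genes. These were bulk samples, so fewer cells of a type and less RNA per cell cannot be told apart. Each group enters 2 of these 4 comparisons, so they share libraries and are not independent.

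**Figure D1:**
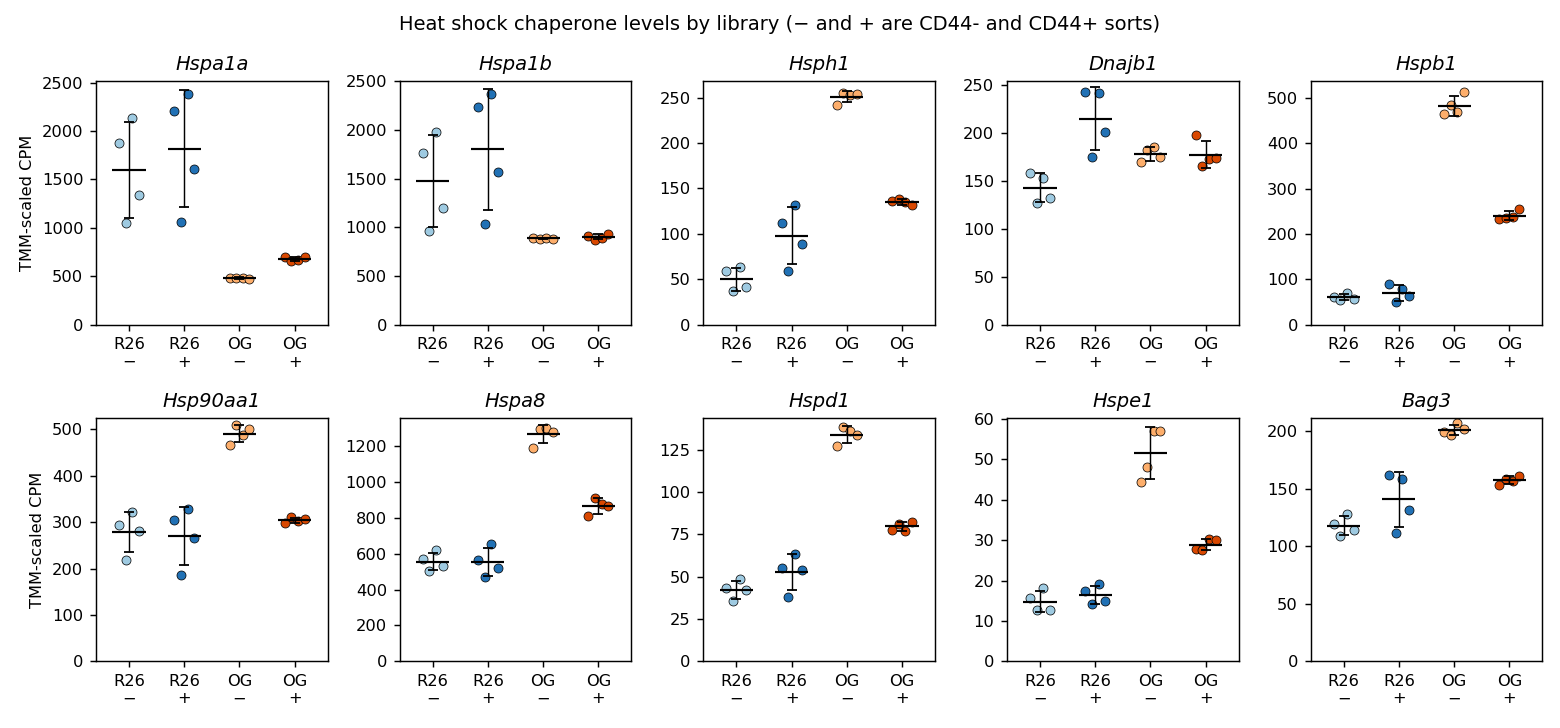
TMM-scaled CPM of each of the 10 chaperone genes (vertical axes, each from 0) in the 4 groups; points are libraries, horizontal lines the group means and bars 1 SD (n = 4). In OG CD44- cells 8 genes are above every R26 CD44- library and Hspa1a and Hspa1b below every one, while the R26 points spread more widely than the OG points.

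**Figure D2:**
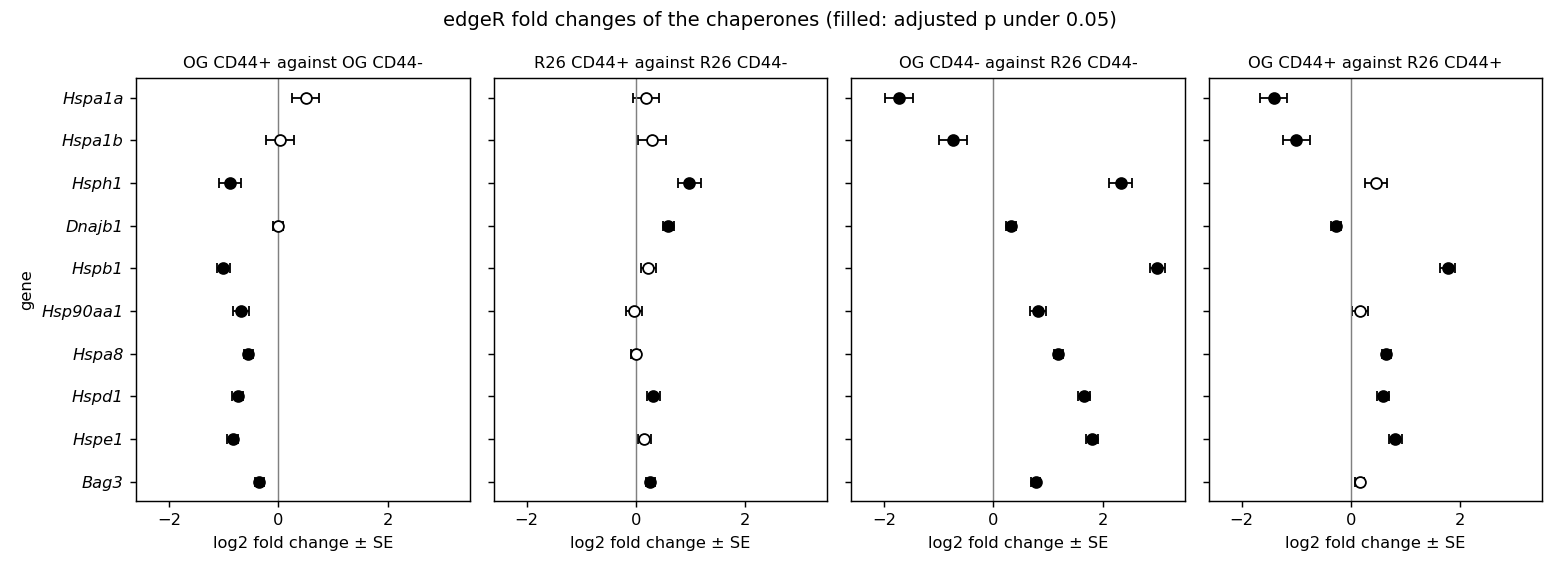
edgeR log2 fold changes ± SE (horizontal axis) of the 10 genes in 4 comparisons; filled points have an adjusted p under 0.05. In OG cells 7 filled points lie left of 0, in R26 cells 4 lie right of 0, and between prefixes Hspa1a and Hspa1b lie left of 0 in both sorts while Hspb1 lies farthest right.

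Hspa1a and Hspa1b encode the stress-inducible HSP70 and are near-identical copies: 58.8% of all 50-base fragments of the Hspa1a transcript occur in that of Hspa1b. How the counting divided shared reads is not given in the sources used here, so the separate values are uncertain. In R26 animals 8, 7, 2 and 1, in this order throughout, Hspa1a was at 1335, 2132, 1048 and 1877 CPM in CD44- cells and 1613, 2385, 1059 and 2208 CPM in CD44+ cells. In OG animals 7, 6, 5 and 3, also in this order throughout, it was at 474, 482, 486 and 487 CPM in CD44- and 697, 669, 658 and 703 CPM in CD44+ cells. Every OG library was below every R26 library, and within OG every CD44+ library was above every CD44- library. The fold change between OG CD44- and R26 CD44- was -1.73 ± 0.25 (adjusted p = 3.93e-05) and in CD44+ cells -1.41 ± 0.25 (adjusted p = 2.10e-04) by edgeR. The CD44 difference was 0.50 ± 0.24 (adjusted p = 0.109) in OG and 0.19 ± 0.24 (adjusted p = 0.589) in R26. With the animal as a block, these were 0.50 (adjusted p = 1.21e-13) and 0.17 (adjusted p = 6.29e-04), both called. The OG difference was also called without R26 animal 2 CD44+ (0.55, adjusted p = 0.0348). Without R26 animal 2 CD44- or animal 7 CD44+, the R26 difference was -0.05.

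Hspa1b was at 1201, 1976, 962 and 1766 CPM in R26 CD44- and 1573, 2373, 1034 and 2238 CPM in R26 CD44+ cells. It was at 879.7, 893, 883 and 892 CPM in OG CD44- and 929, 895, 875 and 916 CPM in OG CD44+ cells. OG and R26 libraries did not overlap in either sort, but the sorts overlapped within each prefix. Hspa1b was lower in OG than in R26 cells, at -0.74 ± 0.25 (adjusted p = 0.0201) in CD44- and -0.998 ± 0.25 (adjusted p = 0.00349) in CD44+ cells by edgeR, on the log2 scale. The CD44- call was lost without both libraries of OG animal 3, at -0.74 with an adjusted p of 0.0519. Hspa1b did not pass the test between sorts, at 0.027 ± 0.25 (adjusted p = 0.939) in OG and 0.29 ± 0.25 (adjusted p = 0.405) in R26. With the animal as a block the R26 difference was 0.28 and was called (adjusted p = 4.87e-07).

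The share of Hspa1a among the counts of the 2 copies separated the 4 groups. It was 52.1% ± 0.465 (SD, n = 4) in R26 CD44-, 50.3% ± 0.451 in R26 CD44+, 35.2% ± 0.233 in OG CD44- and 43.0% ± 0.290 in OG CD44+ cells. No group overlapped the group it was compared with. The differences were 7.76 points between sorts in OG, -1.80 points in R26, -16.8 points between prefixes in CD44- and -7.26 points in CD44+ cells. The sorts of an animal share a lung, so they were compared by sign flips within animals: the share rose in 4 of 4 OG animals and fell in 4 of 4 R26 animals, each with an exact two-sided permutation p of 0.125, the smallest that 4 pairs can give. The prefixes gave an exact two-sided permutation p of 0.0286 in each sort, the smallest that 4 against 4 libraries can give. Adjusted over the 4 comparisons, the values were 0.125 between sorts and 0.0571 between prefixes, so none passed 0.05. Summed over both copies, the level was 3074 ± 968 CPM in R26 CD44-, 3621 ± 1224 in R26 CD44+, 1369 ± 10.8 in OG CD44- and 1585 ± 44.6 in OG CD44+ cells. The sum was lower in OG than in R26 cells, at -1.17 ± 0.25 (adjusted p = 0.00105) in CD44- and -1.19 ± 0.25 (adjusted p = 8.94e-04) in CD44+ cells. Between sorts the sum did not pass edgeR's test, at 0.21 ± 0.25 (adjusted p = 0.508) in OG and 0.24 ± 0.25 (adjusted p = 0.493) in R26. In OG the sums ran from 1354 to 1379 CPM in CD44- and from 1532 to 1625 CPM in CD44+ cells. The test took a single spread from all groups, R26 included, and did not pair the sorts.

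**Figure D3:**
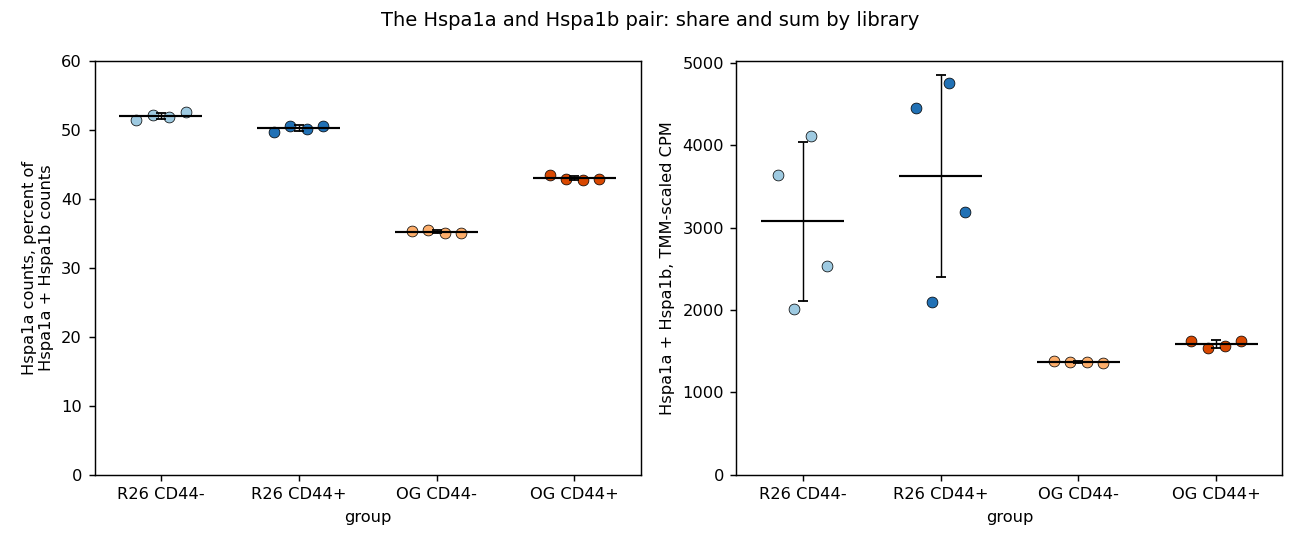
Left, Hspa1a counts as a percent of Hspa1a plus Hspa1b counts in each library; right, their summed TMM-scaled CPM; points are libraries, lines means and bars 1 SD (n = 4). The share is about 35.2% in OG CD44- and 43.0% in OG CD44+ against 50.3% and 52.1% in the R26 groups, and its spread is small even where the sum ranges from 2010 to 4108 CPM in R26 CD44- cells.

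Hspa8 encodes HSC70, the constitutive cytosolic HSP70 that also uncoats clathrin vesicles and targets proteins to lysosomes. It was at 530.2, 618, 505 and 569 CPM in R26 CD44- and 521, 653, 472 and 564 CPM in R26 CD44+ cells. It was at 1278, 1297, 1292 and 1189 CPM in OG CD44- and 867, 874, 912 and 808 CPM in OG CD44+ cells. All OG libraries were above all R26 libraries, the highest being the OG CD44- group. Hspa8 thus ran opposite to the inducible pair: it rose between prefixes by 1.19 ± 0.078 (adjusted p = 1.57e-11) in CD44- and 0.65 ± 0.078 (adjusted p = 2.28e-07) in CD44+ cells by edgeR, while Hspa1a and Hspa1b fell. Within OG it fell from CD44- to CD44+ at -0.55 ± 0.077 (adjusted p = 5.78e-06). In R26 the sorts overlapped and differed by -0.0080 ± 0.077 (adjusted p = 0.948). Only without R26 animal 7 CD44+, among the 16 libraries left out in turn, was that difference called (-0.17, adjusted p = 0.0368).

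Dnajb1, also known as HSP40, is the J protein that pairs with inducible HSP70. It was at 133, 153, 128 and 158 CPM in R26 CD44- and 202, 242, 175 and 243 CPM in R26 CD44+ cells. It was at 175, 186, 183 and 169.7 CPM in OG CD44- and 175, 173, 166 and 198 CPM in OG CD44+ cells. The R26 sorts did not overlap, Dnajb1 being the sole member of which that was true, whereas the OG sorts overlapped. Across all genes tested, 17.2% were higher and 11.6% lower in R26 CD44+ cells without overlap. Dnajb1 rose with CD44 in R26 cells by 0.59 ± 0.10 (adjusted p = 1.08e-04) and differed by -0.0049 ± 0.095 (adjusted p = 0.972) in OG cells by edgeR. The prefixes differed by 0.32 ± 0.10 (adjusted p = 0.00684) in CD44- and by -0.28 ± 0.10 (adjusted p = 0.0158) in CD44+ cells, in opposite directions. The CD44- call was lost without R26 CD44- animal 8 or 2 or R26 CD44+ animal 8, 7 or 1 (0.16 to 0.21), and without both libraries of R26 animal 2 (0.16). The CD44+ call was lost without R26 CD44+ animal 7 or 1 (-0.20 and -0.21), or both libraries of R26 animal 1 (-0.21). With every library kept, both calls were also lost with TMM scaled to OG animal 7 CD44- (0.22 and -0.22).

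Hsph1 encodes HSP110, a large HSP70 relative that acts as its nucleotide exchange factor and in disaggregation. It was at 41.2, 63.03, 36.8 and 58.8 CPM in R26 CD44- and 88.9, 132, 59.2 and 112 CPM in R26 CD44+ cells. It was at 254, 253, 255 and 242 CPM in OG CD44- and 131, 135, 139 and 136 CPM in OG CD44+ cells. OG CD44- libraries were the highest, and the OG CD44+ group overlapped R26 CD44+, where animal 7 reached 132 CPM. Hsph1 rose with CD44 in R26 by 0.98 ± 0.22 (adjusted p = 0.00302) and fell with CD44 in OG at -0.89 ± 0.20 (adjusted p = 0.00234) by edgeR. The R26 rise was seen in 4 of 4 animals and the OG fall in 4 of 4. Between prefixes Hsph1 rose by 2.33 ± 0.21 (adjusted p = 4.49e-07) in CD44- cells, while in CD44+ cells the difference of 0.46 ± 0.21 (adjusted p = 0.0655) did not pass the test. It was called there without R26 animal 2 CD44- (0.47, adjusted p = 0.0467) or R26 animal 7 CD44+ (0.65, adjusted p = 0.0127). The R26 rise missed the threshold when only R26 libraries entered the fit (1.001, adjusted p = 0.0505).

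Bag3 encodes an exchange factor that couples HSP70 to small heat shock proteins and to autophagy. It was at 114, 128, 109 and 119 CPM in R26 CD44- and 131, 158, 112 and 162 CPM in R26 CD44+ cells. It was at 202, 207, 196 and 199 CPM in OG CD44- and 161, 156, 159 and 153 CPM in OG CD44+ cells. OG CD44- was above all other groups, and OG CD44+ overlapped R26 CD44+. Bag3 fell with CD44 in OG at -0.35 ± 0.081 (adjusted p = 0.00123) and rose in R26 by 0.26 ± 0.083 (adjusted p = 0.0172) by edgeR. The R26 call was lost without R26 CD44- animal 8, 2 or 1 or R26 CD44+ animal 8, 7 or 1, at 0.12 to 0.22, or without both libraries of R26 animal 1 (0.13). With every library kept, that call was also lost with TMM scaled to OG animal 7 CD44- (0.16). Between prefixes it rose by 0.77 ± 0.081 (adjusted p = 6.63e-08) in CD44- cells and differed by 0.16 ± 0.082 (adjusted p = 0.0962) in CD44+ cells. The CD44+ difference was called without R26 CD44+ animal 7 (0.23) or animal 1 (0.24), and without both libraries of R26 animal 1 (0.24).

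Hsp90aa1 encodes the inducible cytosolic HSP90. It was at 280.4, 323, 219 and 294 CPM in R26 CD44- and 266, 329, 186 and 304 CPM in R26 CD44+ cells. It was at 499.9, 489, 509 and 467 CPM in OG CD44- and 306, 303, 311 and 298 CPM in OG CD44+ cells. OG CD44- libraries were above all others, and the remaining 3 groups overlapped each other. Hsp90aa1 fell with CD44 in OG at -0.69 ± 0.15 (adjusted p = 0.00146) and rose between prefixes in CD44- cells by 0.81 ± 0.15 (adjusted p = 2.23e-04) by edgeR. It did not pass the test between sorts in R26, at -0.040 ± 0.15 (adjusted p = 0.861), or between prefixes in CD44+ cells, at 0.17 ± 0.15 (adjusted p = 0.332).

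Hspb1 encodes HSP27 (mouse HSP25), a small heat shock protein that holds unfolded clients without ATP and binds actin filaments. It was at 55.6, 68.9, 55.5 and 61.7 CPM in R26 CD44- and 63.5, 79.7, 49.3 and 88.7 CPM in R26 CD44+ cells. It was at 514, 469, 483 and 465 CPM in OG CD44- and 254, 238, 235 and 234 CPM in OG CD44+ cells. Every OG CD44+ library was above every R26 library, and every OG CD44- library above every OG CD44+ library. Its rise between prefixes, 2.996 ± 0.14 (adjusted p = 5.87e-11) in CD44- and 1.77 ± 0.13 (adjusted p = 2.22e-08) in CD44+ cells by edgeR, was the largest of the 10 genes in both sorts. Within OG it fell with CD44 at -1.01 ± 0.12 (adjusted p = 1.23e-05), also the largest fall among the 10. In R26 the sorts overlapped at 0.22 ± 0.14 (adjusted p = 0.224), a difference that was called with the animal as a block (0.21, adjusted p = 0.0385) and without R26 animal 2 CD44+ (0.28, adjusted p = 0.0222).

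Hspd1 and Hspe1 encode HSP60 and HSP10, the barrel and the lid of the chaperonin that folds imported proteins in the mitochondrial matrix. Hspd1 was at 41.98, 48.6, 35.5 and 43.4 CPM in R26 CD44- and 54.1, 63.5, 37.8 and 55.4 CPM in R26 CD44+ cells. It was at 134, 136, 139 and 128 CPM in OG CD44- and 82.5, 77.3, 81.3 and 77.9 CPM in OG CD44+ cells. The OG libraries lay above all R26 libraries and the OG sorts were apart. Hspd1 rose between prefixes by 1.66 ± 0.11 (adjusted p = 4.69e-10) in CD44- and 0.59 ± 0.11 (adjusted p = 1.67e-04) in CD44+ cells and fell with CD44 in OG at -0.75 ± 0.10 (adjusted p = 1.74e-05) by edgeR. In R26 it rose with CD44 by 0.32 ± 0.11 (adjusted p = 0.0378), a call lost without R26 CD44- animal 8, 2 or 1 or R26 CD44+ animal 8, 7 or 1 (0.14 to 0.25) and without both libraries of OG animal 3 (0.32) or of R26 animal 1 (0.24). With every library kept, that call was also lost with TMM scaled to OG animal 7 CD44- (0.22).

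Hspe1, next to Hspd1 on the chromosome, followed the same order of groups. It was at 12.7, 18.2, 12.7 and 15.7 CPM in R26 CD44- and 14.9, 19.2, 14.3 and 17.3 CPM in R26 CD44+ cells. It was at 57.01, 56.9, 48.1 and 44.2 CPM in OG CD44- and 29.9, 30.3, 27.5 and 27.9 CPM in OG CD44+ cells. Every OG library was above every R26 library, and the R26 sorts overlapped. It rose between prefixes by 1.80 ± 0.11 (adjusted p = 1.99e-12) in CD44- and 0.81 ± 0.12 (adjusted p = 2.45e-06) in CD44+ cells and fell with CD44 in OG at -0.84 ± 0.10 (adjusted p = 8.47e-07) by edgeR. In R26 the difference between sorts was 0.15 ± 0.12 (adjusted p = 0.362).

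Whether the CD44 difference itself depended on the prefix was tested as an interaction, the OG difference minus the R26 difference. By edgeR, 8 of 10 members were called, all with the OG difference lower, where 24.7% of all genes were called, 18.1% in that direction and 6.57% in the other. Over all genes this split was 1019 higher and 2806 lower, but 1460 and 2275 with DESeq2 size factors and 2369 and 1697 with TMM scaled to OG animal 7 CD44-. The largest was Hsph1 at -1.87 ± 0.29 (adjusted p = 5.20e-04), whose sorts ran in opposite directions in the prefixes. Hspb1 followed at -1.23 ± 0.18 (adjusted p = 2.47e-04), Hspd1 at -1.07 ± 0.16 (adjusted p = 9.41e-05) and Hspe1 at -0.99 ± 0.16 (adjusted p = 1.01e-04), so the small heat shock protein and both chaperonin genes were among the larger ones. Bag3 was at -0.62 ± 0.12 (adjusted p = 6.20e-04), Dnajb1 at -0.60 ± 0.13 (adjusted p = 0.00375), Hsp90aa1 at -0.65 ± 0.21 (adjusted p = 0.0359) and Hspa8 at -0.54 ± 0.11 (adjusted p = 0.00102). Hspa1a at 0.31 ± 0.34 (adjusted p = 0.563) and Hspa1b at -0.26 ± 0.36 (adjusted p = 0.646) did not pass, but both did with the animal as a block, at 0.33 (adjusted p = 2.19e-05) and -0.25 (adjusted p = 9.48e-04). Summed to a single row the copies gave -0.02 ± 0.35 (adjusted p = 0.973). The call for Hsp90aa1 was lost in 14 of 16 fits that each left out 1 library, at -0.66 to -0.42. It stood without R26 animal 2 CD44+ and without OG animal 3 CD44-, and it was lost without both libraries of OG animal 3 (-0.66) or of R26 animal 1 (-0.498). The count was 7 without OG animal 3, 8 without R26 animal 2 and 7 without R26 animal 1.

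Divided by the length of the longest transcript linked to a RefSeq mRNA, where there was such a link, the levels of different genes can be roughly set side by side, here in CPM per kb. How reads across exon junctions, and reads shared by Hspa1a and Hspa1b, were counted is not given in the sources used here. Ranks between genes within a group are therefore uncertain. In R26 CD44- cells Hspa1a (539 ± 167) and Hspa1b (527 ± 169) led without differing beyond their spread, ahead of Hspa8 (232 ± 20.6). Hspe1 (19.1 ± 3.41), Hspd1 (17.5 ± 2.22) and Hsph1 (13.1 ± 3.39) came last and overlapped in their spread. R26 CD44+ cells had the same 3 leading genes, with Hspa1b at 644 ± 222 and Hspa1a at 612 ± 203. In OG CD44- cells the leading genes were instead Hspb1 (535 ± 24.8) and Hspa8 (528 ± 21.1), which did not differ beyond their spread, followed by Hspa1b (316 ± 2.32) and Hspa1a (163 ± 1.97). In OG CD44+ cells the order was Hspa8 (361 ± 18.02), Hspa1b (322 ± 8.44), Hspb1 (266 ± 10.6) and Hspa1a (229.7 ± 7.31). The small heat shock protein thus moved from the fifth place in both R26 groups to the first and the third in the OG groups. Hspd1 was last in both OG groups, at 55.3 ± 1.97 and 32.9 ± 1.05.

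The members varied far more among R26 animals than among OG animals. Their median coefficient of variation across 4 libraries was 14.2% in R26 CD44- and 21.8% in R26 CD44+, against 3.602% in OG CD44- and 3.19% in OG CD44+ cells. Over the 5986 genes in the members' range of abundance the medians were 5.30%, 8.28%, 3.81% and 5.24% in the same order. Hspa1b held both ends of the members' range, from 34.4% in R26 CD44+ to 0.733% in OG CD44- cells. Within R26, animals 1 and 7 were above animals 2 and 8 for all 10 members in both sorts, an order picked out after the values were seen. It held for 17.9% of all genes tested in CD44-, 19.0% in CD44+ and 6.28% in both sorts. Animal 2 was the lowest for all 10 members in CD44+ cells and for all but Hspe1 in CD44- cells.

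After subtraction of the group means, the log2 levels of the 45 pairs of members had a median Pearson r of 0.92 over the 8 R26 libraries, from 0.78 to 0.999. Over the 8 OG libraries the median was 0.23, from -0.72 to 0.89, with 29 of 45 above 0. These are descriptions: the 2 libraries of an animal share a lung, and all genes of a library share its depth. Among the 7419 genes compared over 16 libraries, those whose deviations were most like Hspa1a were Hspa1b (r = 0.999), Hsph1 (0.981), the J protein gene Dnaja1 (0.977), Itm2a (0.972) and Malt1 (0.969). For Hsph1 they were Hspa1b (0.982), Hspa1a (0.981), Dnaja1 (0.978), Malt1 (0.973) and Ercc6 (0.966). For Hspd1 they were the HSP90 gene Hsp90aa1 (0.979), Anxa1 (0.962), Rbm5 (0.956), Ivns1abp (0.952) and Ccar1 (0.947). Within a prefix these likenesses were unequal: Hspa1a and Hsph1 had r = 0.99 over the R26 libraries and -0.49 over the OG libraries, and Hspa1b and Hsph1 had 0.99 and -0.65. Hspd1 and Hsp90aa1 had 0.98 and 0.80, and Hspa1a and Hspa1b 0.999 and 0.89.

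**Figure D4:**
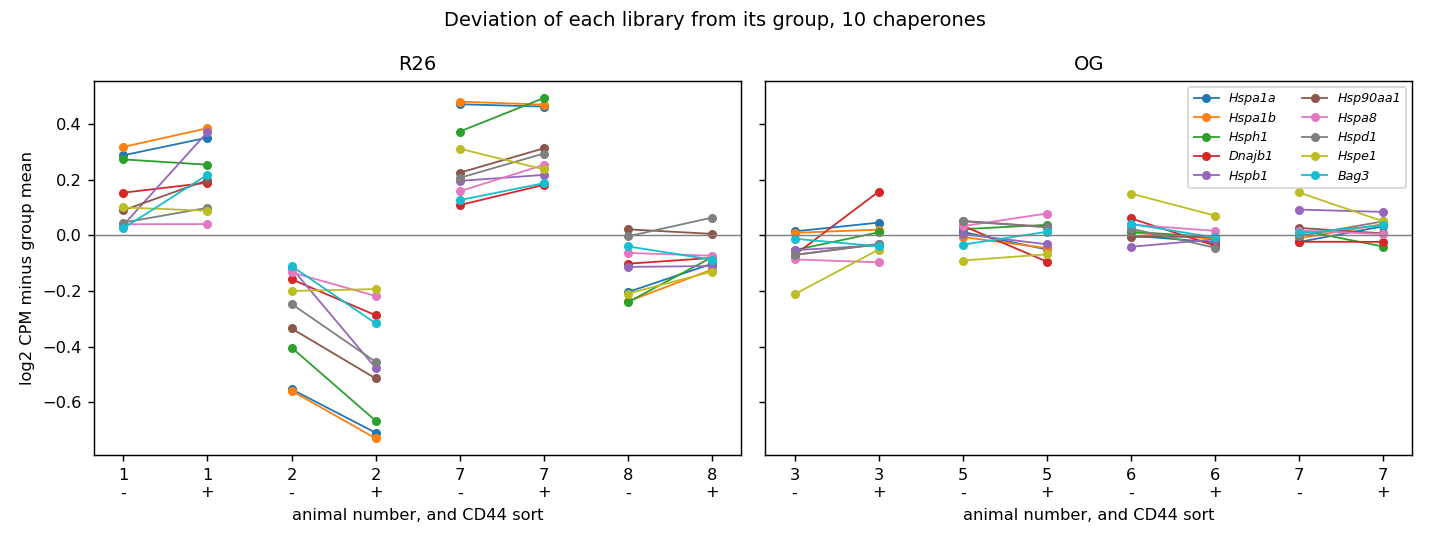
Deviation of each library from its group mean in log2 CPM (vertical axis) for the 10 genes (colours), by animal and CD44 sort (horizontal axis, lines joining the sorts of an animal). R26 animals 1 and 7 lie above and animals 2 and 8 mostly below 0 in both sorts, whereas OG animals lie close to 0, with Hspe1 and Dnajb1 of animal 3 farthest out.

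Of 88 further chaperone genes listed by family, 87 were tested, Hspb3 being too low. In OG cells 46 were lower and 5 higher in CD44+ than in CD44- cells, 58.6% called beside 50.4% of all genes. In R26 cells 14 were lower and 9 higher, 26.4% beside 37.1%. Between prefixes 60 were higher and 12 lower in OG CD44- cells, 82.8% beside 69.0%, and 58 were higher and 16 lower in OG CD44+ cells, 85.1% beside 69.1%. The interaction called 26 lower and 3 higher, 33.3% beside 24.7%. In the first comparison the median over all genes tested was -0.06 and in the third 0.12, so these counts stand beside small shifts of the whole table. The lists were chosen with earlier results of these data known.

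Mitochondrial chaperones and proteases work beside Hspd1 and Hspe1 in the matrix and inner membrane. Of 15 mitochondrial chaperones and proteases, 13 were higher and 0 lower in OG than in R26 CD44- cells, and 10 were lower and 0 higher in OG CD44+ than in OG CD44- cells. That is 86.7% higher beside 39.4% of all genes, and 66.7% lower beside 28.0%. Hspa9, the matrix HSP70, rose between prefixes in CD44- cells by 1.82 ± 0.051 (adjusted p = 1.47e-19) and fell with CD44 in OG at -0.77 ± 0.049 (adjusted p = 1.47e-11) by edgeR. Lonp1, the matrix protease, rose by 1.48 ± 0.051 (adjusted p = 6.22e-18) and fell at -0.81 ± 0.049 (adjusted p = 6.45e-12). In CD44+ cells 12 of the 15 were higher and 2 lower in OG, 80.0% and 13.3% beside 34.5% and 34.6% of all genes. In R26 cells, where Hspd1 was called higher with CD44, 0 of the 15 were higher and 4 lower, among them Trap1, the mitochondrial HSP90, at -0.30 ± 0.052 (adjusted p = 6.80e-05) and Lonp1 at -0.18 ± 0.054 (adjusted p = 0.0116). Those 4 are 26.7% of the list, beside 37.1% of all genes called in either direction, 15.4% lower and 21.6% higher. Of 14 genes of the cytosolic chaperonin TRiC, which folds actin and tubulin, and of its partner prefoldin, 13 were higher and 0 lower in both comparisons of prefixes, with Cct3 at 1.71 ± 0.059 (adjusted p = 7.24e-18) in CD44- cells. That is 92.9% higher, beside 39.4% of all genes in CD44- and 34.5% in CD44+ cells.

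HSP90 works with a set of co-chaperones that load, time and release its clients. Of 16 genes for other HSP90 proteins and these partners, 12 were higher and 2 lower in OG than in R26 CD44- cells, and 10 were lower and 1 higher with CD44 in OG. In CD44+ cells 10 were higher and 3 lower in OG, where Hsp90aa1 itself was not called. With CD44 in R26, 1 was higher and 1 lower, and the interaction called 6 lower and 0 higher. The constitutive Hsp90ab1 rose between prefixes in CD44- cells by 1.42 ± 0.068 (adjusted p = 4.40e-15), the ATPase activator Ahsa1 by 1.71 ± 0.064 (adjusted p = 2.85e-17) and the HSP70 to HSP90 adaptor Stip1 by 1.80 ± 0.076 (adjusted p = 1.88e-15) by edgeR. Fkbp5, a co-chaperone induced by glucocorticoids, rose by 2.74 ± 0.12 (adjusted p = 9.03e-16), while its relative Fkbp4 was lower in OG CD44+ than in R26 CD44+ cells at -0.68 ± 0.053 (adjusted p = 4.11e-11).

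HSP70 partners were more mixed. Of 11 other J protein genes, 5 were higher and 4 lower in OG than in R26 CD44- cells, 81.8% called beside 69.0% of all genes. Dnaja1 was lower in OG in both sorts, at -0.51 ± 0.16 (adjusted p = 0.0123) and -0.80 ± 0.16 (adjusted p = 6.66e-04) by edgeR, the same side as Hspa1a and Hspa1b. Among 8 HSP70 relatives, Hspa1l, the testis-enriched copy beside Hspa1a, was lower at -1.66 ± 0.23 (adjusted p = 6.18e-06) in CD44- cells and Hspa4l, an HSP110 relative of Hsph1, was higher at 1.37 ± 0.075 (adjusted p = 2.52e-13). Bag2, an exchange factor that inhibits client ubiquitination, rose by 2.43 ± 0.11 (adjusted p = 2.67e-15). Of the small heat shock proteins, Cryab rose by 2.25 ± 0.063 (adjusted p = 1.53e-19) and Hspb8, the partner of Bag3, by 1.98 ± 0.059 (adjusted p = 4.71e-19) in CD44- cells, and both fell with CD44 in OG, at -0.33 ± 0.057 (adjusted p = 4.41e-05) and -0.81 ± 0.057 (adjusted p = 6.26e-11).

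The regulators were mixed, and their RNA levels do not show the activity of the proteins. Hsf1, the main activator of the inducible genes, was lower in OG than in R26 cells at -0.17 ± 0.060 (adjusted p = 0.0137) in CD44- and -0.57 ± 0.065 (adjusted p = 3.49e-08) in CD44+ cells, and fell with CD44 in OG at -0.51 ± 0.063 (adjusted p = 5.42e-07) by edgeR. Hsf2 was higher in OG CD44- cells by 1.53 ± 0.088 (adjusted p = 1.26e-13). Zfand2a, an arsenite- and heat-inducible proteasome partner also known as AIRAP, rose by 2.76 ± 0.079 (adjusted p = 4.86e-19) in CD44- cells. Ier5, an immediate early gene product that activates HSF1, rose with CD44 in both prefixes, by 0.93 ± 0.10 (adjusted p = 9.81e-07) in OG and 0.61 ± 0.10 (adjusted p = 1.76e-04) in R26.

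**Figure D5:**
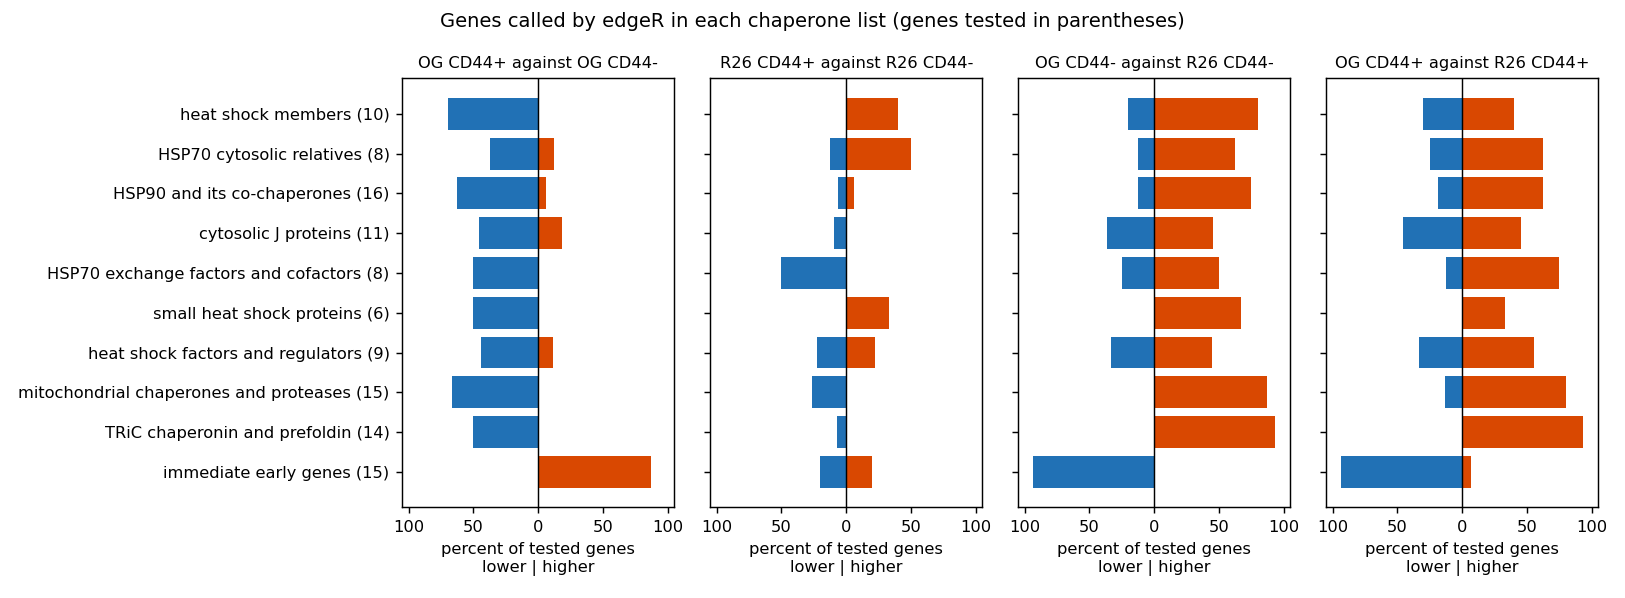
Percent of the tested genes of each list (rows, number tested in parentheses) called higher (right) or lower (left) by edgeR in 4 comparisons. The mitochondrial and TRiC lists have 13 genes to the right and 0 to the left in OG CD44- against R26 CD44-, while the immediate early genes have 14 to the left. Over all genes 39.4% were higher and 29.6% lower there.

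Immediate early genes, which respond within minutes to many stimuli including the digestion of tissue, separated the prefixes on the side of Hspa1a and Hspa1b. Of 15 such genes, 14 were lower in OG in each sort and 13 were higher in OG CD44+ than in OG CD44- cells. Over all genes, 29.6% were lower in OG in CD44- and 34.6% in CD44+ cells, and 22.3% were higher between the OG sorts. Their summed level was 10181 to 11487 CPM in R26 CD44-, 9525 to 12346 in R26 CD44+, 2179 to 2262 in OG CD44- and 3011 to 3990 in OG CD44+ cells. The 3990 CPM was OG animal 3 CD44+, against 3238 at most in the other OG CD44+ libraries. Hspa1a and Hspa1b were also lower in OG, and Hspb1, Hspd1 and Hspe1 were higher in OG. Between the OG sorts, Hspa1a was higher with CD44 in 4 of 4 animals (0.50), called with the block and not without it. Hspa1b (0.03) was called in neither fit, and the sum of both copies (0.21) did not pass in the fit without the block. Within R26 the sum was higher in animals 1 and 7, at 11053 and 11487 CPM in CD44- cells, than in animals 2 and 8, at 10181 and 10680. The part of these genes in the results was not tested.

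Markers of other cell types also differed between the groups. Fibroblast and mural markers, 10 of 10 higher with CD44 in each prefix, summed to 114 to 139 CPM in R26 CD44-, 754 to 1534 in R26 CD44+, 733 to 799 in OG CD44- and 1626 to 2864 in OG CD44+ cells. Leukocyte markers summed to 2443 to 2571, 1675 to 2231, 198 to 238 and 77.5 to 92.4 CPM in the same order. Lyz1 dominated that sum and is also made by AT2 cells. Those other than Lyz1 summed to 20.5 to 25.3, 55.4 to 83.1, 35.6 to 40.0 and 41.0 to 59.0 CPM, with Tyrobp at 0 counts in R26 CD44-. Basal cell markers summed to 0.916 to 1.71, 0.831 to 58.8, 5.93 to 7.02 and 8.06 to 11.3 CPM. Endothelial markers summed to 136 to 157, 196 to 210.3, 186 to 195 and 111 to 123 CPM. Ciliated cell markers summed to 119 to 138, 170.1 to 300.02, 196 to 201 and 383 to 496 CPM, and club and secretory cell markers to 3396 to 4689, 3739 to 6168, 1133 to 1353 and 2265 to 3048 CPM. AT1 markers, of the flat epithelial cells that AT2 cells give rise to, summed to 1853 to 2052, 2678 to 3105, 4121 to 4517 and 3996 to 4467 CPM, and all 12 AT2 markers were lower in OG in both sorts. Beside the fall of 7 chaperones with CD44 in OG, 12 of 12 AT2 markers were called lower (median -0.84) and 6 endothelial markers lower and 0 higher (median -0.73), while all 10 fibroblast and mural and all 10 ciliated markers were called higher. Over all genes 28.0% were called lower and 22.3% higher in that comparison. With CD44 in R26, 21.6% of all genes were called higher. Between prefixes 29.6% were called lower in OG in CD44- and 34.6% in CD44+ cells. The part of these markers in the results was not tested.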

How the data were processed

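The deposited file is a table of raw counts per gene, whole numbers from the authors with no normalization, for 16 libraries of sorted mouse AT2 cells. Per the labels' protocols, total RNA was depleted of ribosomal RNA and made into strand-specific libraries. The submitters' processing notes name Bowtie2, without a version, and the build mm10. The counting program, annotation and strand setting are not given in the sources used here. Symbols were found for 25275 of 27179 identifiers.

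Counts were tested in R 4.3.3 with edgeR 4.0.16 (filterByExpr, TMM, robust quasi-likelihood F test, 1 mean per group over all 16 libraries, adjusted p under 0.05 over 15516 genes). The SE was taken as the size of the log2 fold change over the root of its F statistic. The same steps were also run on simulated counts with few genes changed, no pairing by animal and the same spread per gene in all groups. The data here had many genes called and unequal spreads between groups, so that run does not show how the steps perform on them. Shares were compared by exact permutation of libraries between prefixes and by exact sign flips within animals between sorts in SciPy 1.17.1. Libraries of the same prefix and animal number were taken as the CD44- and CD44+ fractions of 1 lung, since 8 lungs gave 16 libraries. Their deviations from the group means correlated at 0.23 to 0.47 in R26 and 0.01 to 0.27 in OG. Among the CD44+ libraries of its prefix, each CD44- library was most like that of its own number, except for OG animal 6 (r = 0.01). The animal as a block was an alternative, as were DESeq2 1.42.0, its size factors, limma 3.58.1 voom, other filters and references, and leaving out each library. Voom with 1 weight per group and leaving out both libraries of OG animal 3, of R26 animal 2 or of R26 animal 1 were chosen after seeing the data. Replicates differed beyond sampling noise in every group, by the mean chi-square of each pair of libraries, which sampling noise alone puts at 1. It ran from 5.27 to 12.7 in R26 CD44- and from 8.54 to 23.5 in R26 CD44+ pairs. In OG it ran from 2.62 to 6.16 in CD44- and from 1.71 to 10.0 in CD44+ pairs, so some OG pairs came nearer to sampling noise. Whether the spread of a single member exceeded sampling noise was not tested. The number of unused columns was 0.

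Members and lists were chosen with earlier results of these data known. Named genes are all 10 members, up to 3 genes per list and comparison with the smallest adjusted p among those called, and the 5 genes most alike to Hspa1a, Hsph1 and Hspd1 with mean log2 CPM of at least 4. Other values of the named genes, and those of Hsp90ab1, Dnaja1 and Hsf1, are given where they were not picked in that comparison, and these were chosen after their values were seen. Protein sequences were not used here.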

Additional observations from a re-analysis of the deposited data

Results flagged for a closer look

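Hsph1 in OG CD44- cells had a library apart from the other 3. OG animal 3 was at 241.8 CPM, against 253 to 255 in the others. It was the only such case among the 44 sets of 4 libraries examined, and chance gives about 1 in 20.

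The CD44 difference depended on the prefix for 8 members by the test of the difference itself (edgeR interaction, OG difference minus R26 difference, log2). Hsph1 was at -1.87, with the OG difference negative and the R26 difference positive. Hspb1 was at -1.23, Hspd1 at -1.07 and Hspe1 at -0.99. Hsp90aa1 was at -0.65, Bag3 at -0.62, Dnajb1 at -0.60 and Hspa8 at -0.54. In Hspa8 and Hsp90aa1 the R26 difference was close to 0, and in Dnajb1 the OG difference was.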

How the results depend on the processing

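Over all alternatives run, 0 of the called fold changes of members changed direction. Calls were counted once per member, comparison and fit. They were kept 389 times and lost 20 times in the fits that kept every library or left out both libraries of an animal. In the fits without 1 library they were kept 543 times and lost 33 times. The number of members called in R26 CD44+ against CD44- was the least stable: 4 as reported, 2 with TMM scaled to OG animal 7 CD44-, 1 with only the R26 libraries fitted, 7 with the replicate block, 2 without both libraries of R26 animal 1, and 2 to 5 without 1 library. With the replicate block 8 members were called in OG and 10 in the interaction, and the block changed no call of a member other than those given with the results. Differences that changed sign were all uncalled. Dnajb1 in OG, CD44+ against CD44-, was 0.013 with DESeq2 size factors and with the DESeq2 test, 0.052 with the other TMM reference, 0.041 with at least 50 counts in 4 libraries, 0.058 with only OG libraries and 0.045 without both libraries of R26 animal 2 or of R26 animal 1, and ran from -0.062 to 0.045 without 1 library. Hspa8 in R26 was 0.026 with at least 50 counts and 0.018 with only R26 libraries. The interaction of Hspa1a was -0.025 with the copies summed. Without 1 library, Hspa1a in R26 ran from -0.051 to 0.30, Hspe1 from -0.0091 to 0.20, Hsp90aa1 from -0.22 to 0.025, and the interaction of Hspa1b from -0.33 to 0.024. The other TMM reference moved the median interaction of all genes by 0.15, and the call for Hsp90aa1 was lost there at -0.49. Other calls of members were lost for Hspd1 in R26 with DESeq2 size factors (0.27), the other TMM reference (0.22), no filter (0.32) and only R26 libraries (0.34). They were lost for Bag3 in R26 with that reference (0.16) and only R26 libraries (0.29), for Dnajb1 between prefixes with that reference (0.22 in CD44-, -0.22 in CD44+) and with no filter in CD44+ cells (-0.23), and for the Hsp90aa1 interaction with DESeq2 size factors (-0.59). Calls were gained in CD44+ cells between prefixes for Hsph1 with that reference (0.51), DESeq2 (0.46) and both voom fits (0.42 and 0.50), and for Bag3 with that reference (0.22) and no filter (0.20). In OG they were gained for Hspa1a with both voom fits (0.49 and 0.50) and only OG libraries (0.56), and for its copy Hspa1b with only OG libraries (0.089). Leaving out an R26 library also changed the scaling, as given with the R26 results, so animal and scaling cannot be told apart in those fits. The cause was not tested.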

Other observations

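The 10 members summed to 3111 to 5529 CPM in R26 CD44-, 3197 to 6435 in R26 CD44+, 4283 to 4474 in OG CD44- and 3551 to 3632 in OG CD44+ cells. The R26 sum was set mainly by Hspa1a and Hspa1b, which together made up 3074 of 4337 CPM in R26 CD44- on average, against 1369 of 4423 CPM in OG CD44- cells. The R26 totals spread over a wide range, and their lowest and highest values lay on both sides of the OG CD44- totals.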
